A study of Gallus gallus with 26 samples.

Results

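H3K27ac peaks that were listed in the joint interzone of the chick digit and had no counterpart in the adjacent phalange in either of the enhancer marks measured are described here. The peaks of 6 H3K27ac lists were merged where gaps were under 1 kb, which gave 51381 regions. A region was kept when it held a peak in all 3 interzone lists and in none of the 3 phalange lists, and when it overlapped no peak of either phalange H3K4me1 list by 1 base. This rule selected 452 regions, or 0.88% of all merged regions and 17.3% of the 2616 regions with H3K27ac in the interzone only. The other 2164 interzone-only regions overlapped H3K4me1 of the phalange. The study left out promoter regions, within 1 kb of a transcription start, before it named candidate enhancers. The rule used here had no such step, so the regions may include promoters.

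Interzones and the adjacent proximal phalanges were dissected from hindlimb digit 3 of White Leghorn embryos incubated for 7.5 days (HH32), with no genetic change or treatment in either tissue. Each ChIP sample was a pool of 100 specimens. H3K27ac was profiled in 3 samples per tissue, H3K4me1 in 2 and poly(A)-RNA in 3. The interzone is a band of flattened, condensed cells at the site of a future synovial joint, and the phalange is the transient cartilage beside it. The question was which regions may act as enhancers in one tissue and not in the other.

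Enhancers are stretches of DNA that raise transcription of genes, often from a distance. H3K4me1 lies along enhancers whether they are in use or only accessible, while H3K27ac marks those in use. A region that carries both is usually read as an active enhancer, and one with H3K4me1 alone as a primed enhancer. Regions with neither mark in the second tissue are therefore set apart from those that are primed there. In the interzone, such elements are of interest because the cartilage programme is held back there. The study links bone morphogenetic protein and WNT signalling to the formation of joints.

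The selected regions were narrower and weaker than the regions shared by both tissues, and close to the other interzone-only regions. Their width ran from 215 to 6223 bp with a median of 1434 bp, against a median of 4038 bp for the 17455 regions with a peak in all 6 lists. The median was 1494 bp for interzone-only regions with phalange H3K4me1 and 1392 bp for all merged regions. The median fold enrichment over input of the strongest peak in a region was 2.60, 2.64 and 2.55 in interzone 1, 2 and 3. Within each list, with the weakest peak near 0 and the strongest at 100, this put the median region at the percentile 44.4, 47.8 and 41.9. Regions of all 6 lists had medians of 81.6, 82.6 and 80.6 in the same lists. The interzone-only regions with phalange H3K4me1 lay beside the selected ones, with medians of 44.5, 48.5 and 45.3. These peaks were used to choose the regions, so the values describe them and were not tested.

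**Figure D1:**
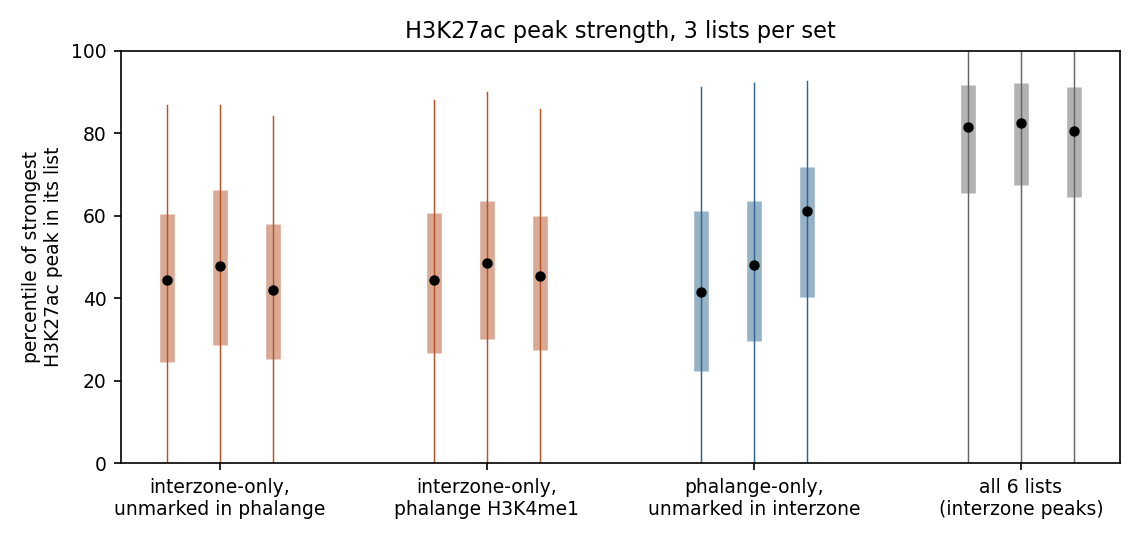
Percentile of the strongest H3K27ac peak of a region within its own list, for 4 sets of regions and 3 lists per set (interzone lists, or phalange lists for the phalange-only set). Dots are medians, thick bars the range from the first to the third quartile and thin lines the full range. The selected regions have medians from 41.9 to 47.8, below the 80.6 to 82.6 of regions listed in all 6 samples.

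The ranking of interzone-only regions by strength was only partly shared between interzone samples. Spearman's rho of the fold enrichment between pairs of interzone lists was 0.394 to 0.405 over the 452 regions, 0.433 to 0.446 over interzone-only regions with phalange H3K4me1 and 0.940 over the regions of all 6 lists. All points of a pair share the same libraries, and the selected regions span a narrow range of fold, so the coefficients are given as a description. In each list, between 287 and 298 of the regions held a single peak, and the rest were joined from several.

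The lists reach down to a -log10 q near 1, which is a q near 0.1. The study's methods give a false discovery rate under 0.05 for peaks, so the lists also hold weaker peaks than that. A total of 42 regions had a q over 0.05 in at least 1 interzone list, 184 had a q of at most 0.01 in all 3 lists, and 59 had a q of at most 0.001 in all 3. Just inside the rule, the region chr13:14303430-14304361 had a smallest -log10 q of 1.05. Just outside it, 632 regions were listed in 2 of 3 interzone samples, and the strongest of them, chr15:4264711-4267438, had a -log10 q of at least 4.46 in both. Another 112 regions were lost to a peak in a single phalange H3K27ac list, which for chr4:8704590-8707683 had a -log10 q of 1.13. On the side of H3K4me1, chr3:54110687-54111409 was kept with a phalange peak 26 bp away, and chr18:2775961-2776547 was lost to an overlap of 6 bp. All coordinates are in Gallus gallus 6.0 (galGal6).

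The number of regions moved most with the rules for merging, overlap and the number of lists, and which regions they were depended on the q of the peaks. With only overlapping or touching peaks merged there were 876 regions, with H3K4me1 of the phalange required in both lists to count 790, with a peak in at least 2 interzone lists 1084, and with phalange H3K4me1 required to cover 0.5 of a region 1111. With only peaks of q up to 0.001 in all lists, the rule selected 467 regions, but only 59 of these overlapped one of the 452, or 13.1% of the 452 and 12.6% of the 467. With q up to 0.05 there were 481 regions, and 90.5% of the 452 were overlapped. Leaving out interzone H3K27ac sample 3 gave 777 regions and leaving out sample 1 gave 733, in each case with 450 of the 452 among them. Both settings loosen the rule, so nearly all of the 452 pass them by construction. Of the 777 and 733 regions, 57.9% and 61.4% overlapped one of the 452. Without phalange H3K4me1 sample 1, 684 regions passed. The mirror set, with H3K27ac in the phalange only and no H3K4me1 in the interzone, held 827 of 2212 regions, or 37.4% of the phalange-only regions. With q up to 0.001 it held 422, so the order of both sets turned.

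The rule did not look at H3K4me1 in the interzone itself. A peak there in at least 1 sample was about as common in the selected regions as in all merged regions. A peak in both samples was less common. A peak was listed for 308 regions (68.1%) in H3K4me1 sample 1 and for 313 (69.2%) in sample 2, against 74.3% and 73.4% of all merged regions. Both samples had one in 265 regions (58.6%), a single sample in 91 (20.1%), and neither in 96 (21.2%). Of all merged regions these shares were 70.7%, 6.41% and 22.9%. In at least 1 sample the share was 78.8% (95% Clopper-Pearson interval 74.7 to 82.4, for counting error only). It was 29.4% with H3K4me1 peaks of q up to 0.001 and 48.5% when the peaks had to cover 0.5 of the region. Of the interzone-only regions with phalange H3K4me1, 99.6% had an interzone H3K4me1 peak, of the regions of all 6 lists 97.6%, and of all merged regions 77.1%. In the mirror set, 88.3% had H3K4me1 in the phalange. These shares stand beside each other without a test, since regions of the same libraries are not replicates and the choice on phalange H3K4me1 used one side of that contrast.

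**Figure D2:**
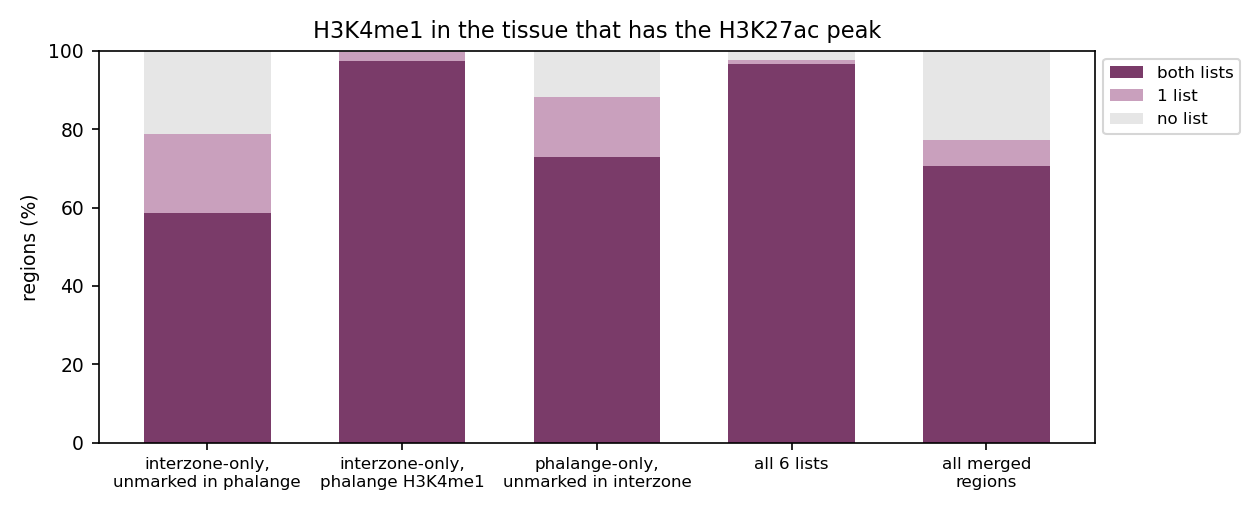
Share of regions (in percent) with an H3K4me1 peak in both lists, in 1 list or in no list of the tissue that holds the H3K27ac peak, for 5 sets of regions. All merged regions and those of all 6 lists are scored in the interzone. The selected regions have a peak in both lists in 58.6% and in neither in 21.2%, while 99.6% of interzone-only regions with phalange H3K4me1 have at least 1.

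Where H3K4me1 was present, its peak was weaker and covered less of the region than in interzone-only regions with phalange H3K4me1. The mirror set had values near these in the phalange H3K4me1 lists. The median percentile of the H3K4me1 peak in its list was 31.0 in sample 1 and 31.9 in sample 2, against 63.0 and 60.1 for interzone-only regions with phalange H3K4me1. The median width of the peak was 697 bp and 700 bp, and it covered a median of 45.3% and 49.1% of the region. For the interzone-only regions with phalange H3K4me1 these medians were 93.0% and 90.0%. In all merged regions with a peak, the median percentile was 70.5 and 68.8 and the median coverage 79.8% and 78.0%. The interzone-only sets were split by phalange H3K4me1, so their difference is a description and was not tested. In the mirror set the median percentile was 35.4 and 39.2 in phalange H3K4me1 samples 1 and 2, and the median coverage 44.4% and 49.1%. The peak reached past both ends of the selected region in 25 of 308 regions in sample 1 and in 26 of 313 in sample 2.

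Among the selected regions, H3K4me1 went along with the strength of H3K27ac. No such ranking was made for other regions, so this is not read as a trait of the selected ones. Ranked by the smallest percentile over the 3 interzone H3K27ac lists, 75.2% of the strongest 113 regions had H3K4me1 in both interzone samples and 10.6% in neither. Among the weakest 113 regions these shares were 42.5% and 33.6%. Median width also fell between these groups, from 1959 to 1126 bp, and its part in the difference was not tested.

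The 10 strongest regions by the same ranking all had H3K4me1 in both interzone samples. The first was chrZ:23498634-23504239, 5606 bp wide, with an H3K27ac fold enrichment of 4.97, 4.17 and 4.59 in interzone 1, 2 and 3. Its nearest phalange H3K27ac peak was 1117 bp away and its nearest phalange H3K4me1 peak 6621 bp away. A phalange peak thus lay just past the distance used for merging. The second, chrZ:13852348-13855363, had fold enrichments of 4.45, 4.81 and 4.53 and stood apart, with phalange H3K27ac 24437 bp and phalange H3K4me1 19116 bp away. For chr3:26203730-26206708 the fold enrichments were 3.65, 3.58 and 4.26, and for chr5:44620593-44626815, at 6223 bp the widest of all, they were 3.61, 3.57 and 5.0.

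The fifth, chr4:18304903-18307287, had 4.39, 3.63 and 3.74 and overlapped a candidate enhancer paired with *IDS*, which encodes the lysosomal iduronate 2-sulfatase. The remaining 5 were chr2:78530362-78532248, chr1:69142320-69145604, chrZ:41243483-41245229, chr3:89254899-89258080 and chr1:178326520-178328860. Their fold enrichments ranged from 3.32 to 4.52 over the 3 samples. Of the 10 strongest regions 3 were on chromosome Z. The smallest percentile of the 10 lay between 74.3 and 82.2.

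Selected regions were unevenly spread over chromosomes. Chromosome Z held 37 of them, which is 1.39% of its 2665 merged regions. Chromosomes 1 to 5 held 280 (1.04%), chromosomes 6 to 10 held 75 (0.875%), and chromosomes 11 to 33 held 58 (0.455%). The other 2 were on unplaced sequence, and chromosome W had 0 among 68 merged regions. The share was thus lowest on the small chromosomes, and it was higher on Z also among interzone-only regions, of which the rule kept 29.4% on Z, 17.8% on chromosomes 1 to 5, 16% on 6 to 10 and 13% on 11 to 33. The mirror set had the same order, with 2.29% of the regions on Z and 0.91% on chromosomes 11 to 33. Embryos of both sexes have chromosome Z, in different copy number, and the sex of the pooled embryos is not given in the sources used here.

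Most of the regions, 381, had no other selected region within 50 kb. A gap under 50 kb to the next one was found for 71 regions (15.7%), which formed 32 groups. What share a set of this size would give by its number alone was not computed. The median gap of the selected regions to a phalange H3K27ac peak was 7652 bp, to a phalange H3K4me1 peak 3479 bp, and to a region of all 6 lists 14535 bp. The merging itself keeps phalange H3K27ac at least 1 kb away. Phalange H3K4me1 was nearer than 1 kb in 49 regions (10.8%) and nearer than 5 kb in 291 (64.4%). The phalange H3K4me1 lists held 111076 and 104880 peaks in samples 1 and 2. These shares were not computed for other regions, so they are not read as a trait of the selected ones.

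The surroundings differed between the tissues in H3K27ac more than in H3K4me1. Between 5 and 20 kb from the centre of a region, 11.4%, 13% and 12.1% of positions were inside an H3K27ac peak in interzone 1, 2 and 3, against 6.22%, 7.16% and 7.63% in phalange 1, 2 and 3. All interzone lists lay above all phalange lists. The rule used these same H3K27ac lists at the regions themselves, so the order around them is a description and was not tested. For H3K4me1 the values were 17.5% and 16.5% in the interzone samples and 14.9% and 14.0% in the phalange samples. Around the mirror set the order was the opposite, with 7.65% to 8.71% in the interzone H3K27ac lists and 10.7% to 15.4% in those of the phalange. Interzone-only regions with phalange H3K4me1 had 10.6% to 11.9% in interzone and 5.68% to 6.67% in phalange, so the surplus was not particular to the selected regions. In total, the interzone H3K27ac lists covered 83.5 to 89.1 Mb and the phalange lists 72.9 to 86.7 Mb.

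**Figure D3:**
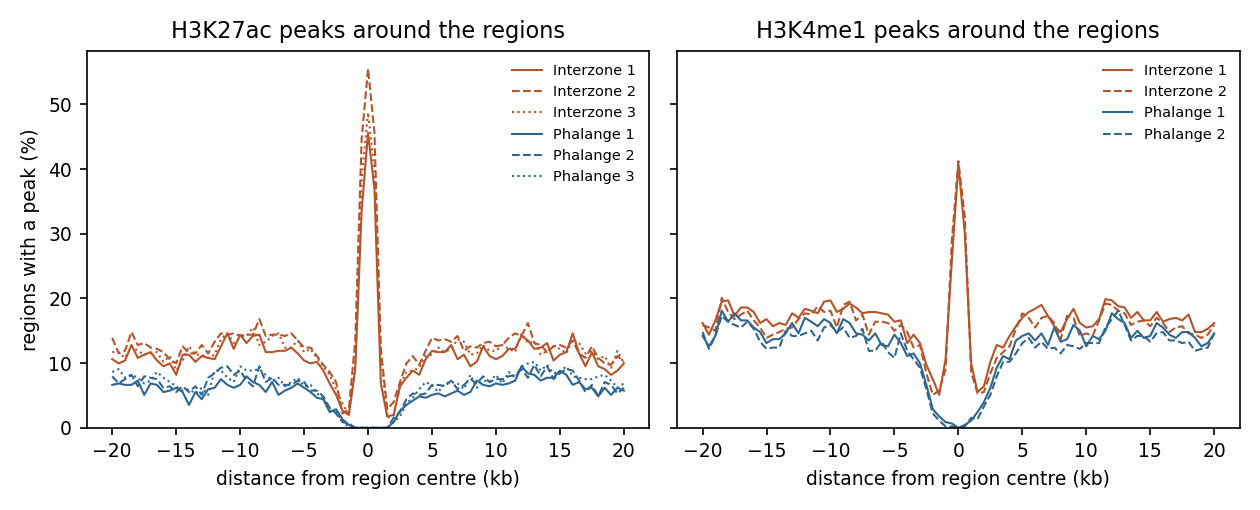
Share of the 452 selected regions (in percent) with a peak at a given distance from the region's centre (in kb, in steps of 500 bp), for H3K27ac on the left and H3K4me1 on the right, 1 line per list. The peak at the centre in the interzone and the 0 in the phalange come from the rule in H3K27ac and, for phalange, in H3K4me1. Averaged over 5 to 20 kb from the centre, the interzone H3K27ac lists lie above the phalange lists (11.4% to 13% against 6.22% to 7.63%). The rule used these same H3K27ac lists. The H3K4me1 lines lie closer together.

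The groups with most members were on chromosomes 5 and Z. On chromosome 5, 4 regions lay within 25833 bp (chr5:9949033-9974865), with no other merged region between them. Their fold enrichments were between 2.05 and 3.35, and the last of them, chr5:9972341-9974865, was the strongest with 3.30, 3.35 and 2.58. Interzone H3K4me1 was listed in both samples for 2 of them, in 1 sample for 1 and in neither for 1. On chromosome Z, another 4 were spread over 103747 bp (chrZ:56951795-57055541) among 12 other merged regions, beside candidate enhancers of *FBN2*, which encodes fibrillin-2 of the extracellular microfibrils. Groups of 3 lay in chr1:122106828-122158863 and chr4:48359787-48422756, with 5 and 10 other regions between them.

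The most compact group of 3 was in chrZ:41008828-41023312, over 14485 bp with no other region in between. It lay at candidate enhancers paired with *GAS1*, which encodes a membrane-anchored hedgehog coreceptor. The first region had fold enrichments of 3.24, 3.94 and 3.03, the second 3.13, 3.42 and 3.25, and the third 2.60, 2.72 and 2.67 in interzone 1, 2 and 3. All 3 had H3K4me1 in both interzone samples. The nearest phalange H3K4me1 peak was 14204, 10873 and 4505 bp away, and the nearest phalange H3K27ac peak 16260, 11531 and 5163 bp away.

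**Figure D4:**
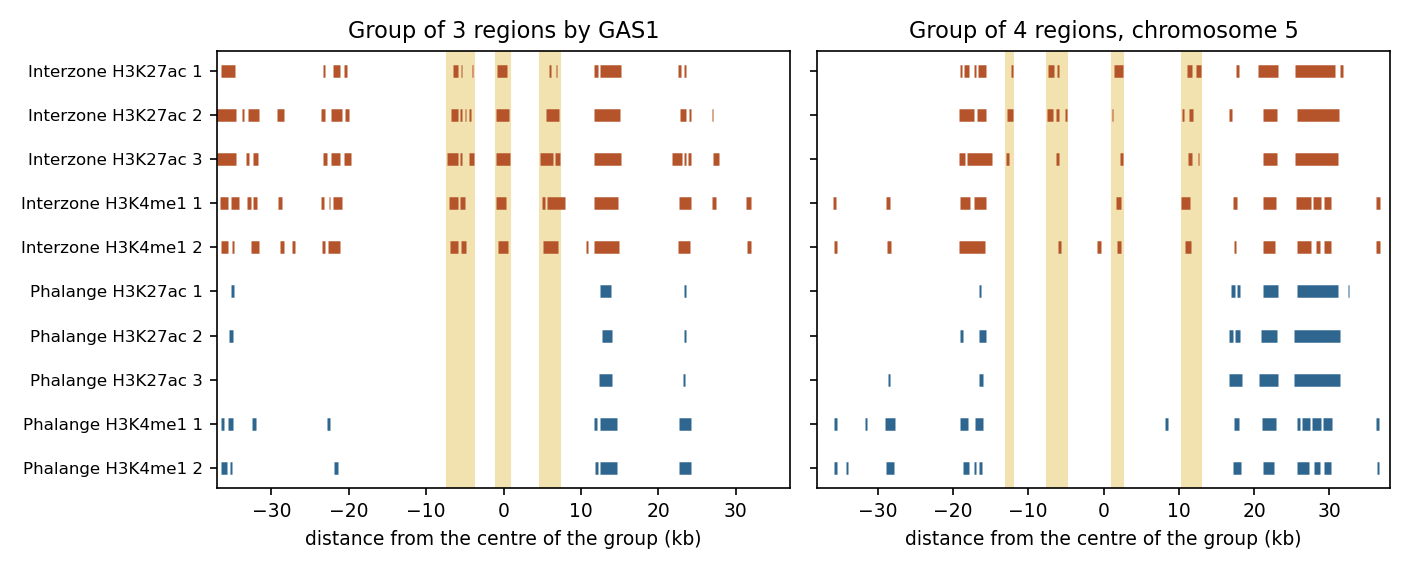
Peaks of the 10 lists as bars (1 row per list, interzone in brown and phalange in blue) against the distance in kb from the centre of 2 groups of selected regions, the 3 regions at *GAS1* and the 4 regions on chromosome 5. Shaded columns are the selected regions, which hold bars in the interzone H3K27ac rows and none in the phalange rows. Peaks of both tissues flank the groups.

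Genes were set beside the regions through the pairs of candidate enhancers and genes that the study drew up for genes with joint phenotypes. The study had selected these enhancers as specific to the interzone, from the same ChIP samples. Of the 586 candidate enhancers used here, 12 fell in selected regions and 97 in interzone-only regions with phalange H3K4me1. Another 254 fell in regions with a peak in all 6 lists and 223 in other merged regions. The study made the pairs with the tool GREAT, after lifting the enhancers to the human genome. A paired gene need not be the nearest one, and the distance from a region to a gene was not measured. Distances given here are to the candidate enhancer. Such an enhancer overlapped 11 regions and lay within 10 kb of 25 regions (5.53%), with 22 genes. For 21 of these the chromosome was the same in the newer assembly GRCg7b, and *P3H1*, paired with a region on chromosome 9 and placed on 21, was left out. The remaining 427 regions were given no gene here. The share of 5.53% was not computed for other regions, so it is not read as a trait of the selected ones. Of the 21 genes, 19 were in the RNA table by symbol and 18 passed the filter of a mean normalized count of at least 10. *VPS13B* and *SLC5A7* were not among its symbols.

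RNA was the readout that the rule did not use. With limma over 11928 genes (adjusted p under 0.05 and log2FC beyond 0.5), 0 of the 18 genes were called, against 0% of all genes in the direction of interzone and 0.0252% in that of phalange. At an unadjusted p under 0.05 there were 5 of 18, all with the higher mean in interzone, against 6.46% of all genes in either direction and 3.72% in this one. In 3 of the 18 (16.7%) the lowest interzone library exceeded the highest phalange library, against 5.86% of all genes, and in 0 the order was the opposite, against 5.11%. On the recovered reads, edgeR called 0 of the 18, against 0% of all genes up in interzone and 0.00838% up in phalange. DESeq2 called 1 of the 18 up in interzone, against 0.914%, and 0 up in phalange, against 0.422%. The median log2FC was 0.52 for the 18 genes and 0.00 for all genes tested. The pairs were restricted to genes with joint phenotypes and to the study's interzone-specific candidate enhancers, so these genes are not a sample of all genes. RNA of the study's other paired genes was not set beside them. The shares above all genes are thus not read as a trait of the selected regions. The smallest p that exact permutation of 3 against 3 libraries allows is 0.1. In bulk tissue, fewer cells of a type and less RNA per cell cannot be told apart.

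The 3 genes without overlap were *COL3A1*, *MATN3* and *TFAP2B*. *COL3A1*, a fibrillar collagen of fibrous and interzone tissue, had 4182, 8524 and 3368 normalized counts in interzone 1, 2 and 3 and 2565, 963 and 1902 in phalange 1, 2 and 3. The tissues did not overlap, and interzone 2 was the highest. By limma it was up in interzone by 1.56 on the log2 scale (SE 0.43, adjusted p = 0.499, two-sided exact permutation test p = 0.1). DESeq2 gave an adjusted p of 0.0218, and over all settings it ranged from 0.0218 to 0.999. *COL3A1* was also reported as higher in interzone by the study, which used DESeq2. Within 10 kb of its candidate enhancers lay chr7:692666-694455, with H3K27ac fold enrichments of 2.11, 2.99 and 2.94, and chr7:822624-824609, with 3.47, 3.32 and 2.51. Both had H3K4me1 in both interzone samples.

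*MATN3* encodes a matrilin of the cartilage matrix. Its normalized counts were 130, 61.9 and 82.8 in interzone and 0, 0 and 12.4 in phalange 1, 2 and 3. A count of 0 allows up to 3 reads, or 2.99 and 3.15 normalized counts in these libraries. The gene was thus low in both tissues and at the limit of detection in 2 of 3 phalange libraries. Its adjusted p was 0.454 by limma (two-sided exact permutation test p = 0.1), and over all settings it ranged from 0.159 to 0.845. The region at its candidate enhancer, chr3:101417146-101418335, was among the weaker ones, with fold enrichments of 2.26, 2.37 and 2.33 and H3K4me1 in 1 interzone sample.

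*TFAP2B*, a transcription factor of the AP-2 family, had 1330, 1064 and 2446 normalized counts in interzone and 885, 532 and 1040 in phalange. The nearest libraries, interzone 2 and phalange 3, differed little. By limma the log2 difference was 0.94 (SE 0.37, adjusted p = 0.707, two-sided exact permutation test p = 0.1), and the adjusted p ranged from 0.351 to 0.999 over all settings. The region chr3:108223632-108225013 had fold enrichments of 2.27, 3.06 and 2.56.

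**Figure D5:**
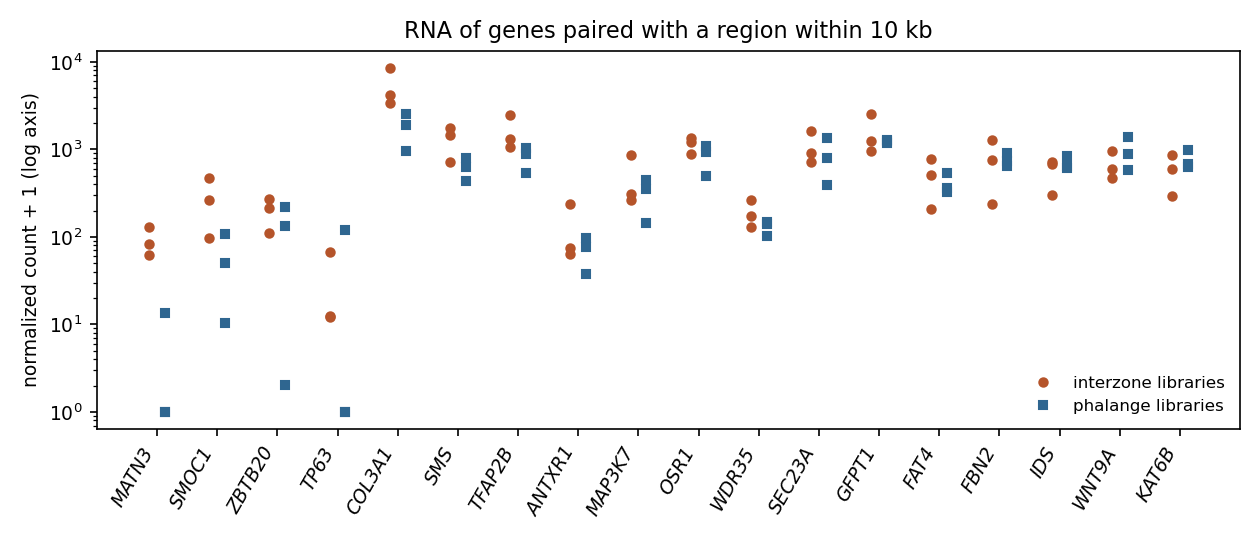
Normalized counts + 1 (log axis) of the 18 tested genes paired with a candidate enhancer within 10 kb of a selected region, ordered by log2FC, with 1 point per library (circles for 3 interzone, squares for 3 phalange). *MATN3*, *COL3A1* and *TFAP2B* have all interzone points above all phalange points, and the other 15 genes overlap.

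In the other 15 genes the tissues overlapped. *SMOC1*, a secreted protein known to antagonize bone morphogenetic protein signalling in frog, had 266, 470 and 96.0 normalized counts in interzone and 49.9, 9.44 and 108 in phalange, so phalange 3 lay above interzone 3. *SMS*, which encodes spermine synthase, had 1770, 1469 and 714 against 629, 435 and 790. Both had an unadjusted limma p under 0.05, of 0.0249 and 0.0259, and the adjusted p of 0.661 and 0.666 did not pass. *OSR1*, a zinc-finger factor of limb connective tissue, had 1332, 882 and 1226 against 1102, 497 and 922, beside chr3:101076776-101079848, one of the stronger regions with 3.51, 3.89 and 3.42.

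For *FBN2*, *WNT9A*, *IDS* and *KAT6B* the mean log2 level was not higher in interzone. *FBN2* had 1280, 237 and 765 normalized counts in interzone and 907, 644 and 731 in phalange, with 3 regions within 10 kb of its candidate enhancers. *WNT9A*, a WNT ligand used as a marker of the joint interzone, had 966, 469 and 597 against 579, 886 and 1377. *IDS*, at one of the 5 strongest regions, had 726, 677 and 304 against 611, 649 and 831. *KAT6B* had 594, 295 and 862 against 625, 980 and 686 (limma adjusted p = 0.936). The log2FC of *FBN2*, *WNT9A*, *IDS* and *KAT6B* was -0.29, -0.46, -0.38 and -0.49. The standard errors were 0.55, 0.39, 0.37 and 0.41. *GAS1*, beside the group of 3 regions, fell under the filter, with 6.26, 6.19 and 0.941 normalized counts in interzone and 0, 0 and 2.87 in phalange. Its mean was higher in interzone, but at this level no difference could be tested.

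*TP63*, a transcription factor of the epidermis, had 11.6, 67.1 and 11.3 normalized counts in interzone and 119, 0 and 0 in phalange, so a single phalange library held all its phalange reads. The summed level of the 5 epidermis markers in the table was 941 to 1440 in interzone and 545 to 969 in phalange. *TP63* is itself among these 5, so the sum is not a separate measure of epidermis. The part of epidermis in the value of *TP63* was not tested. The remaining genes were *ZBTB20*, *ANTXR1*, *MAP3K7*, *WDR35*, *SEC23A*, *GFPT1* and *FAT4*. Their adjusted p by limma was at least 0.922.

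A list of 60 joint and BMP/TGF-beta genes was read as background for the pathway. Of these, *COL3A1*, *OSR1*, *SMOC1*, *FBN2*, *WNT9A* and *GAS1* had a candidate enhancer within 10 kb of a selected region. Of the 54 tested genes of the list 0 were called by limma, against 0.0252% of all genes. An unadjusted limma p under 0.05 was found for 21, against 6.46% of all genes. DESeq2 called 15 up in interzone and 0 up in phalange, against 0.914% and 0.422%. In 20 (37%) all interzone libraries were above all phalange libraries, against 5.86% of all genes. In 2, *GREM1* and *TWIST1*, the order was the opposite, against 5.11%. *INHBB*, which encodes an activin subunit, had 323, 1347 and 184 normalized counts in interzone and 0, 0 and 2.87 in phalange. *DACT2*, an intracellular modulator of WNT and TGF-beta signalling, had 818, 1166 and 941 against 363, 74.5 and 75.6. The list was chosen with results of these libraries known, so its counts are no independent evidence of a direction.

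Marker genes were set beside the tissue labels. The study had reported *GDF5*, *ENPP2*, *ERG* and *COL3A1* as higher in interzone in these same libraries, and chondrocyte markers as higher in phalange. The lists hold such genes, so they are no independent check of the labels. The summed level of 7 interzone markers, *COL3A1* and *WNT9A* among them, was 21548 to 101151 normalized counts in the interzone libraries and 7730 to 11091 in phalange. Of these 7 markers, 4 were higher in every interzone library and 0 were lower in every one. The log2FC of *HAS2* and *WNT9A* was negative, at -1.32 and -0.46. The summed level of 8 chondrocyte markers was 11075 to 53961 normalized counts in interzone and 50344 to 82275 in phalange, so these ranges overlapped. Of the 8, 5 were lower in every interzone library. Tendon and fibrous markers summed to 73864 to 97970 and 65387 to 71639, and muscle, endothelium, blood, macrophage and nerve markers were present in both tissues with overlapping ranges. No marker found in the table was at 0 in all 6 libraries. The sum of the tendon and fibrous markers was thus higher in interzone, while of the 7 tested 0 were higher and 1 was lower in every interzone library, with a median log2FC of 0.14. Their part in the difference of *COL3A1* was not tested.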

How the data were processed

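For ChIP-seq, the authors trimmed reads with Trimmomatic, mapped them with Bowtie 2 to Gallus gallus 6.0, removed duplicates with Picard and called broad peaks with MACS2 against input in each sample. The deposited lists give the fold enrichment (a ratio to input) of each peak and the -log10 of its p and q. The number of reads behind the lists is unknown, and fold enrichment was ranked only within a list. For RNA-seq (Smart-seq2), the authors mapped reads with STAR, counted them with featureCounts on Ensembl genes and deposited a signal, counts divided by size factors of DESeq2. Whole reads were recovered from 100% of values, within 0.1 read, and came to 12431285 to 14347148 per library. The RNA libraries are named as biological replicates, without the number of embryos in each, and p-values measure the spread between these samples.

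Regions were merged and compared in Python 3.11.15 (pandas 2.3.3), and bedtools 2.31.1 gave the same 452 regions. RNA was tested with limma 3.58.1 in R 4.3.3 on log2(normalized count + 1), which understates changes of low genes, for genes with a mean of at least 10, with Benjamini-Hochberg adjustment. Recovered reads were tested with edgeR 4.0.16 and DESeq2 1.42.0 (544 adjusted p were NA). The scripts were tested on simulated data. Intervals and the limit of 3 reads for a count of 0 cover counting error only.

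Members, gene lists and tests were chosen with earlier results of these data known. Named regions were the 10 with the highest smallest percentile, the 5 largest groups, those at candidate enhancers of named genes and those nearest the thresholds, and named genes were those paired with a candidate enhancer within 10 kb. Apart from *P3H1*, another gene and its pair with a region are not reported here and were left out of the gene counts. *INHBB*, *DACT2*, *GREM1*, *TWIST1* and *HAS2* were named after their values were seen. Alternatives covered merging, q, overlap, libraries left out, pseudocount, filter, normalization, edgeR, DESeq2 and the replicate block. Same-numbered RNA libraries deviated together with correlations of 0.192, 0.0804 and -0.017, and differently numbered ones with -0.144 to 0.0733. This does not settle whether the numbers are pairs, and the labels do not say so. The main test took no pairs, and the replicate block is the alternative. Sequences, motifs and gene structures at the regions were not analysed here.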

Additional observations from a re-analysis of the deposited data

How the results depend on the processing

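The 452 regions became 876 with only touching peaks merged, 1111 when phalange H3K4me1 had to cover 0.5 of a region, 790 when it had to be in both lists, and 1084 with 2 interzone lists required, and 471 to 777 when a library was left out. The share with interzone H3K4me1 (78.8%) became 29.4% with H3K4me1 peaks of q up to 0.001, 48.5% with an overlap of 0.5 of the region, 69.3% with touching peaks merged, and 68.1% to 69.2% with a single sample. Overlap alone left 12 of the 22 paired genes.

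For RNA, limma called 0 genes higher in interzone and 3 in phalange. The counts were 1 and 5 with a pseudocount of 10, 2 and 5 with a mean of at least 50, 0 and 1 with edgeR, 104 and 48 with DESeq2, and 0 and 1 with the replicate block, which called none of the 18 genes. With a library left out they ranged from 0 to 5 and from 0 to 4, with both highest values in the fit that lacks phalange 1 and 0 in both directions in the other 5 fits. Of the 18 genes, *COL3A1* was called, by DESeq2 alone. The study made its own calls with DESeq2, at the same thresholds. It reported more genes in each direction than DESeq2 called here, with *COL3A1* among those higher in interzone. The log2FC of *TP63* turned to -0.41 with edgeR and -0.40 with DESeq2. Without a library, those of *FAT4* (-0.29 to 0.64), *FBN2* (-0.82 to 0.39), *GFPT1* (-0.18 to 0.52), *IDS* (-0.61 to 0.02) and *SEC23A* (-0.02 to 0.87) changed sign. The causes were not tested. The planned motif counts were not run, for want of sequence of this build. A region with no listed peak may hold signal under the threshold, and the reads behind the lists are unknown.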
